A study of Mus musculus with 6 samples.

Results

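The genes described here are 10 regulators of energy metabolism measured in mouse cardiomyocytes (CMs) around birth: the nuclear receptors Ppara, Ppard, Rxra, Esrra, Esrrb, Esrrg, Thra and Thrb and the coactivators Ppargc1a and Ppargc1b. They were chosen by symbol, 10 of the 27998 genes in the count tables, and each symbol stood for a single gene whose identifier was the same in the reference annotation. CMs came from the left ventricles of C57BL/6J mice at embryonic day (E) 16.5 and postnatal days (P) 1 and 5, without genetic change or treatment. Methanol-fixed cells were sorted for the CM protein MYH1 and, by Hoechst staining of DNA, into diploid (2n) and tetraploid (4n) CMs, a 4n cell being a CM in G2/M, a binucleated CM or one with a tetraploid nucleus. Each of the 6 groups is written as its age and ploidy (E16.5-2n for diploid CMs at E16.5) and is 1 library of cells from 3 sorts of different litters, so no group had a replicate library and no test between ages or ploidies was run.

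Nuclear receptors are transcription factors that bind DNA and, for many of them, are switched by a small lipid-like ligand. PPARα and PPARδ are switched by fatty acids and turn on genes of fatty acid uptake and oxidation as heterodimers with a retinoid X receptor such as RXRα. The estrogen-related receptors (ERRs) have no known natural hormone and drive genes of mitochondrial respiration together with the PGC1 coactivators, which do not bind DNA themselves. The thyroid hormone receptors TRα and TRβ mediate the response to thyroid hormone, which rises around birth and is known for the switch from fetal to adult myosin in the rodent ventricle.

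The 6 libraries held 31156 cells, of which 30733 (98.6%) carried at least 1 UMI (unique molecular identifier, a counted RNA molecule) of each of Tnni3, Tnnt2, Tnnc1 and Actc1, genes of the contractile apparatus, and were used as CMs. Total UMIs were between 13213992 and 19714177 per library, and median UMIs per CM between 1831 (P1-2n) and 4658 (P5-4n). Levels are UMIs of a gene scaled by the summed UMIs of the CMs of its library (CPM), with exact 95% Poisson intervals, and ratios between libraries are on the log2 scale with exact 95% binomial intervals. All intervals cover counting error only. CMs with at least 3 UMIs of fibroblast, endothelial, immune and mural marker genes (23 markers in all, called stromal markers below, none of them at 0 in any library) made up 2.63%, 3.12% and 8.41% of diploid CMs of E16.5, P1 and P5 and 21.8%, 35.6% and 15.9% of tetraploid CMs of these ages. The part of doublets in this difference between ploidies was not tested. CMs with at least 3 UMIs of 20 cycling markers made up 19.3%, 2.43% and 11.6% of diploid and 54.7%, 11.5% and 41.4% of tetraploid CMs. Summed over 6 erythroid markers, which are not among the stromal ones, diploid CMs had 5125, 1895 and 2242 CPM and tetraploid CMs 10327, 2906 and 1649 CPM at the 3 ages, and the part of this RNA in differences between ages was not tested. A total of 499 cell barcodes occurred in more than 1 library, 17 to 62 per pair of libraries.

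All 10 genes were detected in every library, from 2 UMIs (Thrb in E16.5-2n) to 2192 UMIs (Esrra in P5-4n). The summed level of the 10 genes was 346, 363 and 313 CPM in diploid CMs of E16.5, P1 and P5 and 311, 345 and 318 CPM in tetraploid CMs of these ages. Taking each age as a pair of libraries, 3 of the 10 genes kept one direction between ploidies at all 3 ages, Ppard (higher in 4n), Rxra and Esrrg (both lower in 4n), and 3 such pairs cannot give an exact two-sided p under 0.25. How many of all genes kept one direction was not counted, so the 3 cannot be set apart from that share. Under the alternatives run Esrrg kept its direction at each age, while Ppard turned at E16.5 (-0.21 without the stromal-marker CMs) and Rxra at E16.5 and P1 (0.13 and 0.09 without those carrying cycling markers). Most single genes stayed within 1.5-fold between neighbouring ages and between ploidies, while Esrrb and Thrb, with few UMIs, were higher at P5 than at E16.5 and Ppargc1b was higher after birth than before. Esrrg was lower after birth in CMs of both ploidies. The median log2 ratio of all genes with at least 50 UMIs in both libraries was -0.346 from E16.5 to P1 in 2n and -0.299 in 4n, so a member with a log2 ratio of 0 there stood above the typical gene; from P1 to P5 it was -0.09 in 2n and -0.175 in 4n, and between ploidies 0.04, 0.06 and 0.02 at E16.5, P1 and P5. In 3' counts a level per gene length has no meaning and intronic reads were counted too, so a level is compared between libraries and not between genes.

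**Figure D1:**
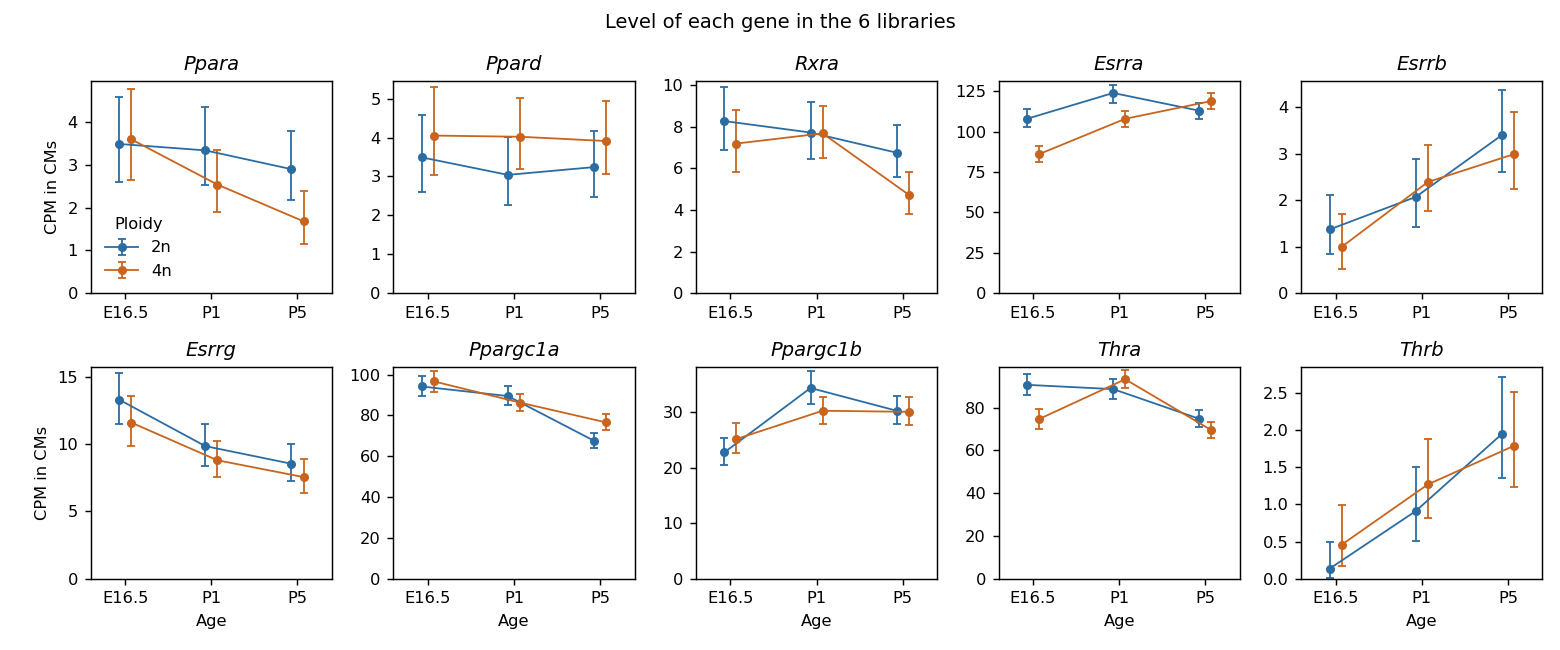
Level of each of the 10 genes (CPM, y axis from 0, a scale of its own in each panel) at E16.5, P1 and P5 (x axis) in 2n (blue) and 4n (orange) CMs; points are 1 library each and bars the 95% Poisson interval. Esrrb and Thrb lie lowest at E16.5 and highest at P5 in both ploidies, Esrrg the reverse, and Ppara is lowest in P5-4n at 1.68 CPM.

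The letters these receptors are known to bind are shown first, with the promoters of members and of PPAR target genes that hold them, since levels of both are described further on. The receptors bind variants of the hexamer AGGTCA: PPAR-RXR pairs as AGGTCANAGGTCA, a direct repeat with a spacing of 1 base, TR-RXR pairs as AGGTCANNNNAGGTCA with a spacing of 4, and ERRs as a single site with 3 preceding bases, TCAAGGTCA. RefSeq promoters (GRCm38.p6, 250 bases before to 50 after a gene start, 32851 in all) were given for 8 of the 10 genes, with 14 promoters, and were searched on both strands. AGGTCA itself stood in promoters of 2 of the 8 genes, the second Rxra start listed and the first Thrb start listed, and in 16.3% of all promoters. TCAAGGTCA (0.423% of all promoters), an exact AGGTCANAGGTCA (0.0396%) and an exact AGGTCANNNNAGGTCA (0.0152%) stood in 0 of the 8 genes' promoters. With at most 2 of the 12 fixed bases different, the repeat with 1 base between was found for Rxra and Thrb (3.86% of all promoters) and that with 4 bases between for Esrra (3.02%). All 3 longer motifs contain AGGTCA, and the matches are letters only. Counts here are of genes, which can have more than 1 promoter, while the shares are of single promoters. The stretches of the 2 genes with the hexamer follow, 5′ to 3′ on the strand of the gene, with the hexamer or its reverse complement in capitals. The Rxra stretch lies at chr2:27709181-27709273 (plus strand), with matches that begin 87 and 48 bases before the start, and the Thrb stretch at chr14:17660752-17660805 (plus strand), with a match that begins 184 bases before the start.
Rxra: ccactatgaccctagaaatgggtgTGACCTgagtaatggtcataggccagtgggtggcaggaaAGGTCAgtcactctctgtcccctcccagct
Thrb: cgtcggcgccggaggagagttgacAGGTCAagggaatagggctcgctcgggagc

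Of 25 genes listed as PPAR targets, 20 had a promoter given, with 22 promoters in all. Of the 20 genes, 4 (Cd36, Plin2, Slc25a20 and Ucp3) held the PPAR-RXR repeat with at most 2 of its 12 fixed bases different, and of all single promoters 3.86% did. The stretches are printed for the 3 of these 4 genes whose match lies wholly upstream of the start. Of the 3, Cd36 (a fatty acid transporter) and Ucp3 (a mitochondrial carrier) are 2 of the targets with a large ratio at birth. Plin2 (a lipid droplet protein) is one with none. In capitals is the repeat on either strand, each with 2 differing bases. Positions are chr5:17835923-17835983 (minus strand) for Cd36, chr7:100472916-100472976 (plus strand) for Ucp3 and chr4:86670248-86670308 (minus strand) for Plin2.
Cd36: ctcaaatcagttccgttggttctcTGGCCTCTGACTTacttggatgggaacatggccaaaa
Ucp3: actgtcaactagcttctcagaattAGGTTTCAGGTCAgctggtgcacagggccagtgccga
Plin2: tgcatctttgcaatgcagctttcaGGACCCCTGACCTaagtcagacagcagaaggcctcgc

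Ppara (ENSMUSG00000022383, chr15:85734983-85802819, plus strand, GRCm38), the fatty acid sensor of the oxidative heart, was at 3.49, 3.34 and 2.90 CPM in diploid CMs of E16.5, P1 and P5 and 3.60, 2.54 and 1.68 CPM in tetraploid CMs of these ages. The P5-4n library was the lowest, with 31 UMIs against 47 to 55 in the other libraries. The log2 ratio of 4n to 2n at P5 was -0.78 (interval -1.47 to -0.12), and that of E16.5 to P5 in 4n was -1.09 (-1.80 to -0.41). From E16.5 to P1 the ratio was -0.06 in 2n and -0.50 in 4n, and both intervals spanned 0, as did that from P1 to P5 in 2n, at -0.21. From P1 to P5 in 4n it was -0.59 (-1.29 to 0.08), past the fold but with an interval that also spanned 0, and -0.04 when each CM was given equal weight. The 4n ratio from E16.5 to P1 was -0.97 with equal weight per CM and -1.40 without the CMs carrying cycling markers. In the order of the 6 libraries no neighbouring pair differed beyond counting error.

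Ppard (ENSMUSG00000002250, chr17:28232700-28301474, plus strand), the more broadly expressed PPAR, was at 3.49, 3.04 and 3.24 CPM in diploid CMs of E16.5, P1 and P5 and 4.05, 4.02 and 3.91 CPM in tetraploid CMs of these ages. The 4n library was the higher one at each age, by log2 ratios of 0.22, 0.40 and 0.27 at E16.5, P1 and P5, each with an interval that spanned 0. Without the CMs carrying stromal markers these ratios were -0.21, 0.06 and 0.20. The highest and the lowest of the 6 libraries differed by 0.42 (-0.17 to 1.00), so no difference between libraries was detectable at this depth.

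Rxra (ENSMUSG00000015846, chr2:27676440-27762957, plus strand), the partner of PPARs and TRs on DNA, was at 8.27, 7.72 and 6.75 CPM in diploid CMs of E16.5, P1 and P5 and 7.19, 7.68 and 4.73 CPM in tetraploid CMs of these ages. The 5 highest libraries did not differ from their neighbours in order beyond counting error, and P5-4n lay below them, with a log2 ratio of -0.51 (-0.93 to -0.10) to P5-2n. Between P1 and P5 the log2 ratio was -0.70 (-1.10 to -0.31) in 4n and -0.19 (-0.57 to 0.18) in 2n. Whether these ratios of 2n and 4n differ was not tested.

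**Figure D2:**
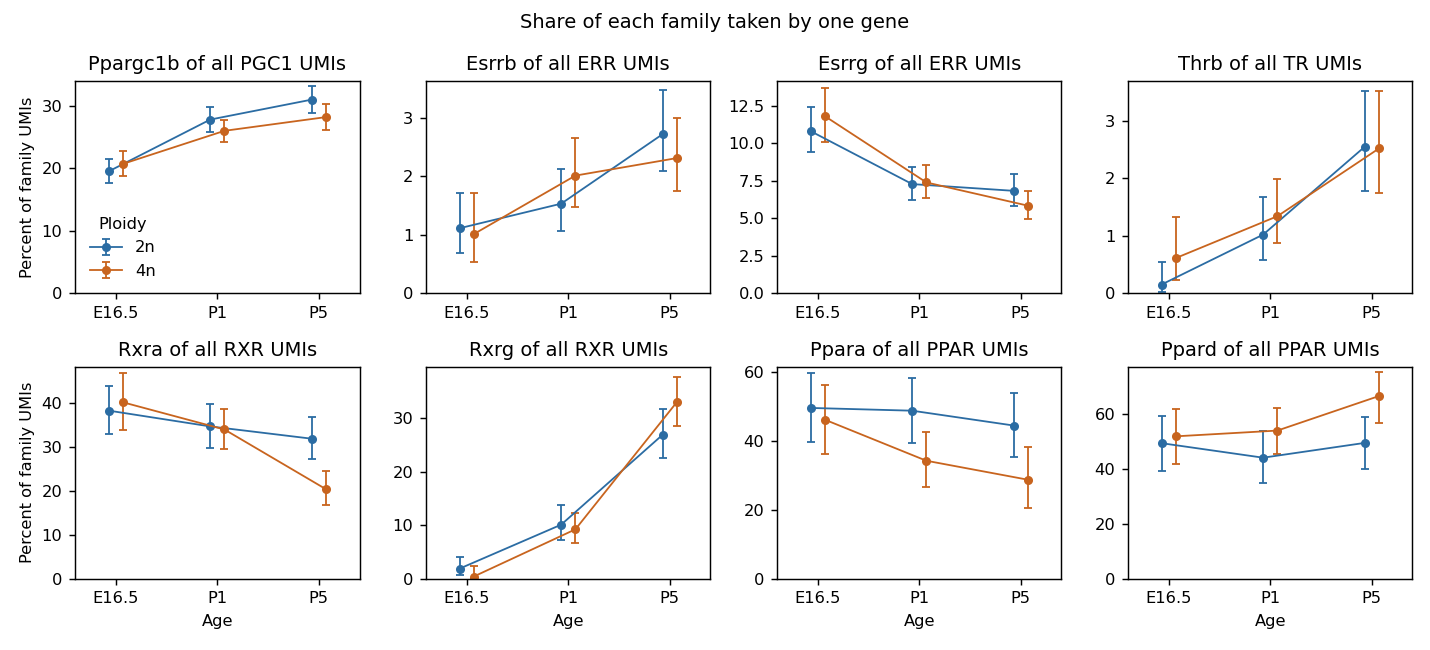
Percent of the UMIs of a gene family that came from the named gene (y axis, from 0) at each age (x axis) in 2n (blue) and 4n (orange) CMs, with exact 95% binomial intervals; families are PGC1 (Ppargc1a, Ppargc1b), ERR (Esrra, Esrrb, Esrrg), TR (Thra, Thrb), RXR (Rxra, Rxrb, Rxrg) and PPAR (Ppara, Ppard, Pparg). The share of Rxrg goes from 1.90% and 0.427% at E16.5 to 26.9% and 33.0% at P5, and that of Ppargc1b from 19.5% and 20.7% to 31.0% and 28.2%.

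Set against its relatives in the same library, Rxra gave 38.3% (interval 32.9 to 43.9%), 34.7% and 31.9% of all RXR UMIs in diploid CMs of E16.5, P1 and P5 and 40.2%, 34.0% and 20.4% (16.7 to 24.5%) of all RXR UMIs in tetraploid CMs of these ages. Rxrg, the form known from striated muscle and not one of the 10 genes, had 6, 37 and 102 UMIs in diploid and 1, 41 and 141 UMIs in tetraploid CMs. Its share of RXR UMIs was 1.90%, 10.1% and 26.9% in diploid and 0.427%, 9.23% and 33.0% in tetraploid CMs. The log2 ratio of Rxrg to Rxra was higher at P5 than at P1 by 1.53 (0.88 to 2.18) for diploid and by 2.58 (1.95 to 3.21) for tetraploid CMs. Shares computed without the CMs carrying stromal markers were close, with Rxrg at 29.4% in P5-2n and 35.0% in P5-4n. Pparg, which is best known from fat cells, had between 1 and 17 UMIs per library and 40 in all, and it was highest in P1-4n, the library with most stromal-marker CMs. Without those CMs its share of PPAR UMIs in P1-4n was 9.52%, against 11.6% with them, and was still the highest of the 6 libraries.

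Esrra (ENSMUSG00000024955, chr19:6910977-6921813, minus strand) encodes ERRα, which acts with PGC1α on genes of oxidative phosphorylation. It was at 108, 124 and 113 CPM in diploid CMs of E16.5, P1 and P5 and 86.1, 108 and 119 CPM in tetraploid CMs of these ages. E16.5-4n lay below the other 5 libraries, and the step from the next lowest library to it was 0.33 (0.22 to 0.43). Between E16.5 and P1 the log2 ratio was 0.19 (0.09 to 0.29) for diploid and 0.33 (0.22 to 0.43) for tetraploid CMs, that is 0.54 and 0.62 above the median of all genes. From P1 to P5 it was -0.13 (-0.22 to -0.04) for diploid and 0.14 (0.05 to 0.23) for tetraploid CMs. Over E16.5 to P5 it was 0.06 (-0.03 to 0.16) for diploid and 0.47 (0.36 to 0.57) for tetraploid CMs. None of these ratios reached 1.5-fold as reported. With libraries scaled by the median ratio of genes, those from E16.5 to P1 were 0.51 in 2n and 0.64 in 4n, and the latter passed 1.5-fold. Thinned to 2000 UMIs per cell, 20.5%, 22.8% and 19.7% of diploid CMs and 15.6%, 19.7% and 20.7% of tetraploid CMs held an Esrra UMI, against 23.8%, 22.8% and 35.4% and 20.0%, 33.3% and 42.5% at full depth. The thinning left out 2244, 4133 and 446 shallower diploid and 2142, 998 and 167 shallower tetraploid CMs. Without the stromal-marker CMs its ratio of 4n to 2n at P1, -0.19 (-0.28 to -0.11) as reported, was -0.08.

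Esrrb (ENSMUSG00000021255, chr12:86361117-86521628, plus strand), the ERR known from early embryonic cells, had 20, 34 and 61 UMIs in diploid CMs of E16.5, P1 and P5 and 13, 47 and 55 UMIs in tetraploid CMs of these ages. These counts are 1.37, 2.07 and 3.40 CPM in diploid and 0.995, 2.39 and 2.99 CPM in tetraploid CMs. Both E16.5 libraries were lowest and both P5 libraries highest. Over E16.5 to P5 the log2 ratio was 1.32 (0.57 to 2.12) for diploid and 1.59 (0.70 to 2.58) for tetraploid CMs, a fold of 2.49 and 3.01. From E16.5 to P1 it was 0.60 (-0.24 to 1.47) for diploid and 1.26 (0.35 to 2.28) for tetraploid CMs, and from P1 to P5 it was 0.72 (0.09 to 1.37) for diploid and 0.32 (-0.27 to 0.92) for tetraploid CMs. The last of these was -0.11 without the stromal-marker CMs.

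Esrrg (ENSMUSG00000026610, chr1:187608791-188214885, plus strand) encodes ERRγ, which is known from highly oxidative tissues such as heart. It was at 13.3, 9.85 and 8.54 CPM in diploid CMs of E16.5, P1 and P5 and 11.6, 8.80 and 7.55 CPM in tetraploid CMs of these ages. The order followed age, and within each age the 2n library was the higher one, although no neighbouring pair in that order differed beyond counting error. From E16.5 to P5 the log2 ratio was -0.64 (-0.96 to -0.33) for diploid and -0.62 (-0.96 to -0.28) for tetraploid CMs, which is -0.19 and -0.10 relative to the median of all genes. Within the ERR family its share of UMIs was 10.8%, 7.27% and 6.82% in diploid and 11.8%, 7.38% and 5.83% in tetraploid CMs. The ratio of Esrrg to Esrra, which no scaling of libraries affects, changed by -0.63 (-0.94 to -0.31) from E16.5 to P1 in 2n and by -0.73 (-1.06 to -0.40) in 4n. That of Esrrb to Esrrg changed by 1.96 (1.17 to 2.75) from E16.5 to P5 in 2n and by 2.21 (1.28 to 3.14) in 4n.

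Ppargc1a (ENSMUSG00000029167, chr5:51454250-51567726, minus strand) encodes PGC1α, the inducible coactivator of mitochondrial biogenesis. It was at 94.2, 89.5 and 67.6 CPM in diploid CMs of E16.5, P1 and P5 and 96.7, 86.3 and 76.6 CPM in tetraploid CMs of these ages. The 4 libraries of E16.5 and P1 did not differ from their neighbours in order, and both P5 libraries lay below them, P5-4n under P1-4n by 0.17 (0.07 to 0.27) and P5-2n under P5-4n by 0.18 (0.07 to 0.29). Between E16.5 and P1 the log2 ratio was -0.07 (-0.18 to 0.03) for diploid and -0.16 (-0.27 to -0.06) for tetraploid CMs, and with libraries scaled by the median ratio of genes these became 0.25 and 0.15. Between P1 and P5 it was -0.40 (-0.52 to -0.29) for diploid and -0.17 (-0.27 to -0.07) for tetraploid CMs, and scaled by the median ratio these were -0.30 and -0.03. In no comparison of neighbouring ages or of ploidies did Ppargc1a reach 1.5-fold.

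Ppargc1b (ENSMUSG00000033871, chr18:61298136-61400431, minus strand) encodes PGC1β, the close relative that also works with ERRs. Its level was 22.8, 34.4 and 30.3 CPM in diploid CMs of E16.5, P1 and P5 and 25.2, 30.3 and 30.1 CPM in tetraploid CMs of these ages. The 4 postnatal libraries lay above both E16.5 libraries, and the step between them was 0.25 (0.05 to 0.45). From E16.5 to P1 the log2 ratio was 0.59 (0.39 to 0.79) for diploid and 0.26 (0.07 to 0.46) for tetraploid CMs, and from P1 to P5 it was -0.18 (-0.35 to -0.01) and -0.01 (-0.18 to 0.16). With libraries scaled by the median ratio of genes, the ratios of Ppargc1b from E16.5 to P1 were 0.91 and 0.58, both above these intervals. Its share of PGC1 UMIs was 19.5% (17.7 to 21.5%), 27.8% and 31.0% (28.8 to 33.2%) in diploid CMs of E16.5, P1 and P5 and 20.7%, 26.0% and 28.2% in tetraploid CMs of these ages. The log2 ratio of Ppargc1b to Ppargc1a was higher at P1 than at E16.5 by 0.67 (0.44 to 0.89) for diploid and by 0.43 (0.21 to 0.65) for tetraploid CMs, and over E16.5 to P5 by 0.89 (0.66 to 1.11) and 0.59 (0.36 to 0.81). Between ploidies of the same age the interval of this ratio spanned 0 at all 3 ages, and that of Ppargc1b itself lay below 0 at P1 (-0.18, -0.35 to -0.02).

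Thra (ENSMUSG00000058756, chr11:98740638-98769006, plus strand) encodes TRα, the main thyroid hormone receptor of the heart. Its last 1075 bases overlap Nr1d1 on the opposite strand, and the counting was strand-specific. Thra was at 90.7, 88.7 and 74.8 CPM in diploid CMs of E16.5, P1 and P5 and 74.7, 93.3 and 69.5 CPM in tetraploid CMs of these ages. E16.5-2n and both P1 libraries lay above the other 3 libraries, with a step of 0.25 (0.14 to 0.36) between P1-2n and P5-2n. In 4n the log2 ratio was 0.32 (0.21 to 0.43) from E16.5 to P1 and -0.43 (-0.53 to -0.32) from P1 to P5. For 2n CMs it was -0.03 (-0.14 to 0.08) and -0.25 (-0.36 to -0.14), where the former became 0.29 with libraries scaled by the median ratio. In 4n the ratio from E16.5 to P1 became 0.63 with that scaling, past 1.5-fold. It was 0.13 without the CMs carrying cycling markers, and both values lie outside its interval.

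Thrb (ENSMUSG00000021779, chr14:17660261-18038090, plus strand), the TRβ gene, had 2, 15 and 35 UMIs in diploid CMs of E16.5, P1 and P5 and 6, 25 and 33 UMIs in tetraploid CMs of these ages. As levels these are 0.137, 0.912 and 1.95 CPM in diploid and 0.459, 1.27 and 1.79 CPM in tetraploid CMs. The E16.5 libraries were lowest and those of P5 highest. Its log2 ratio from P1 to P5 in 2n was 1.10 (0.19 to 2.08), and that from E16.5 to P5 in 4n was 1.97 (0.69 to 3.51). In 2n the count of 2 at E16.5 gave 3.84 with an interval of 1.88 to 6.94. The share of Thrb in TR UMIs was 0.150% (0.0182 to 0.543%), 1.02% and 2.55% (1.78 to 3.52%) in diploid CMs of E16.5, P1 and P5 and 0.611%, 1.34% and 2.52% in tetraploid CMs of these ages. The step from P1 to P5 in 4n, 0.50 (-0.30 to 1.31), was -0.03 without the stromal-marker CMs, in which Thrb was lower within P1-4n by 1.43 on the log2 scale (-3.04 to -0.05 as the interval of the ratio).

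A call was a fold of at least 1.5 among genes with at least 50 UMIs in both libraries together. Between E16.5 and P1 in 2n 2 of the 9 members with enough UMIs were higher (Esrrb and Ppargc1b) and 0 lower, against 5.35% of all genes higher and 33.0% lower. The same comparison in 4n gave 1 of 9 higher (Esrrb) and 0 lower, against 7.63% and 31.0%. From P1 to P5 in 2n 2 of 10 were higher (Esrrb and Thrb) and 0 lower, against 9.16% and 10.1%, and in 4n 0 were higher and 2 of 10 lower (Ppara and Rxra), against 5.59% and 19.0%. For 4n against 2n, 0 of 8 members were called at E16.5, where 11.2% of all genes were higher and 1.80% lower, and 0 of 9 at P1, where 12.6% were higher and 0.506% lower. At P5 1 of 10 was lower (Ppara), and 4.62% of all genes were higher and 2.69% lower. Counts of 0 to 2 members are too small to be set apart from these shares of all genes, and no member was among the many genes lower at P1. With equal weight per CM, Esrrg in 2n (-0.61) and Ppara in 4n passed the fold as lower there, and so did Ppara in 4n without the CMs carrying cycling markers. Thrb was under the minimum of UMIs in both comparisons of E16.5 with P1 and in those of ploidies at E16.5 and P1, and Esrrb at E16.5.

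How many CMs hold a UMI of a gene depends on depth as well as level. Over all libraries 28.3% of CMs had a UMI of Esrra, 22.7% of Ppargc1a, 22.3% of Thra, 8.80% of Ppargc1b, 3.08% of Esrrg, 2.25% of Rxra, 1.16% of Ppard, 0.924% of Ppara, 0.739% of Esrrb and 0.374% of Thrb. No cell type without these genes was at hand, and the nearest comparison is with the 423 cells that missed a CM marker, at a median of 1110 UMIs. Of these, 5.20% had a UMI of Esrra, 4.02% of Ppargc1a and 13.2% of Thra, and 1.18% had one of Ppard (interval 0.385 to 2.74%) and 2.13% of Rxra (0.977 to 4.00%). For Thrb it was 0.473% (0.0573 to 1.70%), and Ppara and Esrrb had 0 of 423, with an upper bound of 0.868% by the exact binomial interval. The shares of Ppard, Rxra and Thrb over all CMs lay within these intervals and that of Esrrb under its bound. For these genes detection in CMs at full depth could not be told apart from that in the other cells. Neither could detection at 1000 UMIs per CM for Ppara (0.126 to 0.361% by library), Esrrg (0.684 to 1.45%, other cells 0.146 to 2.06%) and Ppargc1b (2.22 to 3.41%, other cells 0.820 to 3.69%). Rxra at 1000 UMIs per CM (0.493 to 0.969% by library) lay below the interval of the other cells. Ppard (0.286 to 0.442%) and Thrb (0.0181 to 0.169%) then lay on both sides of their lower bounds, 0.385% and 0.0573%. At that depth Esrra (8.05 to 11.9%) and Ppargc1a (6.46 to 9.86%) lay above the intervals of the other cells (3.29 to 7.77% and 2.36 to 6.36%). Thra, at 6.75 to 10.3%, lay below the 13.2% of the other cells (10.2 to 16.8%). Those cells are shallower, were not thinned and are not known to lack the genes, and they set no background level.

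**Figure D3:**
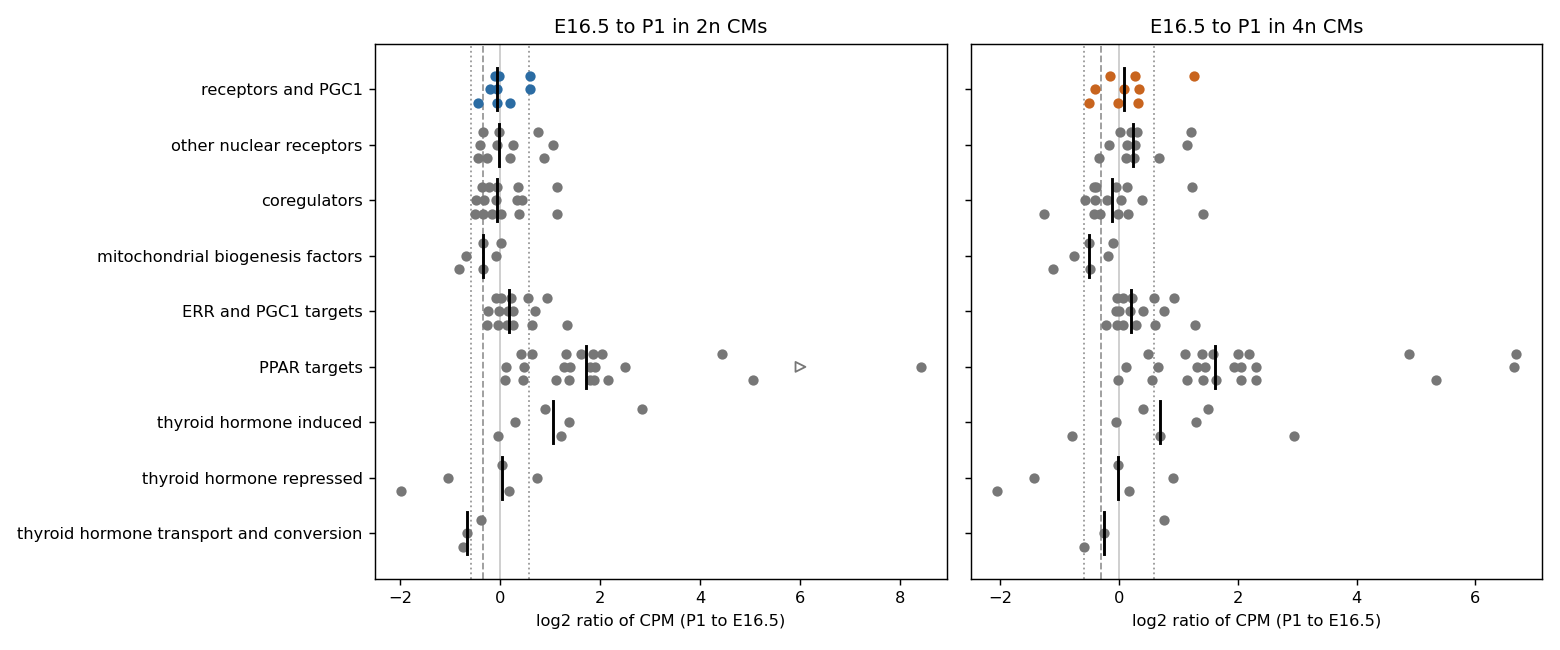
Log2 ratio of CPM from E16.5 to P1 (x axis) in 2n (left) and 4n (right) CMs for the receptors and coactivators (coloured) and 8 lists of related genes (grey, rows), 1 point per gene with at least 50 UMIs, black bars at the median of a list; dotted lines mark 1.5-fold, the dashed line the median of all genes and the open triangle is Ucp3 with 3 UMIs in place of 0. The receptors and coactivators lie around 0, with medians of -0.06 and 0.09, and the PPAR targets around 1.71 and 1.61.

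Genes known to be driven by PPARs were mostly higher after birth. From E16.5 to P1 19 of 24 PPAR targets with enough UMIs were at least 1.5-fold higher and 0 lower in 2n, with a median log2 ratio of 1.71 beside -0.35 for all genes, and in 4n 20 of 24 were higher and 0 lower, with a median of 1.61 beside -0.30. In that step 5.35% of all genes were higher in 2n and 7.63% in 4n. Summed over the list, diploid CMs had 5295 CPM at E16.5 and 14925 CPM at P1, and tetraploid CMs 4386 and 13171 CPM. Its most counted genes, Fabp3 (fatty acid binding), Acadl and Hadhb (β-oxidation enzymes), had log2 ratios of 2.15, 0.64 and 1.12 in 2n and of 2.30, 0.66 and 1.11 in 4n. Of the genes whose promoters are printed above, Cd36 in diploid CMs was at 96.4 CPM before and 334 CPM after birth, and Plin2 at 39.9 and 42.9 CPM. Ucp3 had 0 UMIs in diploid CMs of E16.5 and 13.3 CPM at P1, a log2 ratio of at least 5.70 by the exact interval and 6.01 with 3 UMIs in place of 0. Cpt1b, a further listed target, had 20 UMIs in all 6 libraries and stayed under the minimum. Between P1 and P5 0 targets were higher and 5 lower in 2n, among them Ucp3, Angptl4, Acot1 and Acot2, and 4 were lower in 4n, among them Ucp3, Angptl4 and Acot2, beside 10.1% and 19.0% of all genes lower in that step. In that step Ucp3 went from 13.3 to 4.80 CPM in 2n.

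Among 16 genes listed as ERR and PGC1 targets, 4 were higher from E16.5 to P1 in 2n (Cox5a, Ckmt2, Slc25a4 and Etfdh) and 4 in 4n (Cox5a, Ckmt2, Mfn2 and Etfdh), and 0 were lower in either. The medians were 0.18 and 0.20, above those of all genes, of which 5.35% in 2n and 7.63% in 4n were higher. Slc25a4 (the ADP/ATP carrier), Cox5a (a subunit of cytochrome c oxidase) and Atp5b (of ATP synthase) had log2 ratios of 0.69, 0.63 and -0.09 in 2n. Ckmt2, the mitochondrial creatine kinase of muscle, was the 1 gene of this list past 1.5-fold from P1 to P5, by 1.13 in 2n and 1.38 in 4n. In that step 9.16% of all genes were higher in 2n and 5.59% in 4n. Of 6 mitochondrial biogenesis factors, 2 were lower from E16.5 to P1 in each ploidy (Nrf1 and Tfb1m) and 0 higher, beside 33.0% and 31.0% of all genes lower, while Tfam, Gabpa and Tfb2m had ratios of -0.35, -0.34 and -0.09 in 2n.

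For the thyroid hormone pathway, 4 of 6 induced genes with enough UMIs were higher from E16.5 to P1 in 2n (Myh6, Atp2a2, Adrb1 and Ryr2), and 4 of 7 in 4n (Myh6, Atp2a2, Kcna5 and Ryr2), where 1 was lower (Kcnd2). Shares of all genes in that step were 5.35% higher and 33.0% lower in 2n, and 7.63% and 31.0% in 4n. The interval of Kcna5 in 4n (0.69, -0.11 to 1.54) spanned 0. Myh6, the adult myosin heavy chain, went from 352 to 2528 CPM in 2n and from 295 to 2267 in 4n. Among 5 repressed genes Myh7, the fetal myosin heavy chain, and Slc8a1 were lower in both ploidies and Pln was higher in both, by 0.73 in 2n and 0.90 in 4n, while Adcy5 was at 0.03 and -0.01. Myh7 in diploid CMs was at 3765, 955 and 183 CPM at the 3 ages. Of the transporters and deiodinases, Dio2, the activating deiodinase, was at 3.15, 1.89 and 2.06 CPM in diploid and 1.38, 2.34 and 2.50 CPM in tetraploid CMs, and Dio1 and Dio3 had 0 UMIs in every library, which allows up to 0.153 to 0.230 CPM. Slc16a10 was lower from E16.5 to P1 in 2n (-0.67).

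For comparison, 15 other nuclear receptors and 16 coregulators were counted. From E16.5 to P1, 3 of 11 receptors were higher in 2n, among them Nr1d2 and Nr2f2, and 3 of 12 in 4n, among them Nr1d2 and Nr2f1, and 0 were lower. Beside these counts, 5.35% of all genes were higher and 33.0% lower in 2n, and 7.63% and 31.0% in 4n. The intervals of Nr2f2 in 2n (0.75, -0.12 to 1.66) and Nr2f1 in 4n (0.67, -0.06 to 1.44) spanned 0. The most counted receptors of this list, Nr4a1, Nr3c1 (the glucocorticoid receptor) and Nr2f6, had ratios of -0.34, 0.19 and -0.26 in 2n. Nr2f2 was at 1.23 CPM in diploid and 8.57 CPM in tetraploid CMs of E16.5 and at 2.07 and 10.6 CPM at P1, higher where stromal-marker CMs were frequent, whose part in this was not tested. The coregulators Perm1, a muscle regulator that acts with PGC1 and ERRs, and Lpin1 were higher in both ploidies, by 1.14 and 1.13 in 2n and by 1.42 and 1.22 in 4n, and Ncoa3 was lower in 4n. Prkaa2, Hdac3 and Ncor1 had ratios of -0.50, -0.33 and -0.22 in 2n. From P1 to P5 Rxrg was the 1 receptor of this list that was higher, and it was so in both ploidies. In that step 4 of 12 receptors were lower in 2n and 6 of 13 in 4n, among them Nr4a1 in both. Of all genes, 9.16% were higher and 10.1% lower in 2n, and 5.59% and 19.0% in 4n.

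**Figure D4:**
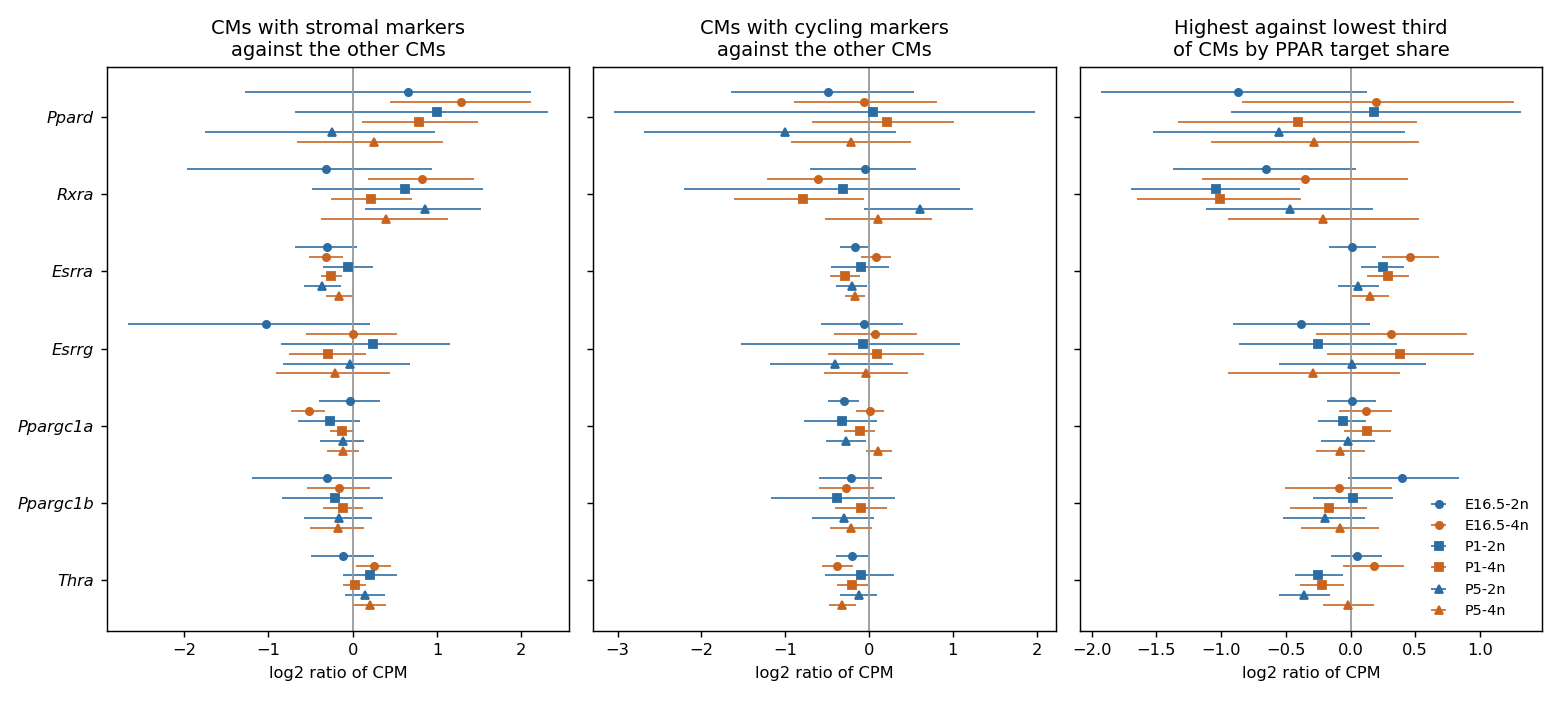
Log2 ratio of CPM (x axis) within each library between CMs with and without stromal markers (left), with and without cycling markers (middle) and between the groups of CMs with the highest and the lowest share of PPAR target UMIs (right), for 7 genes (rows); colours give ploidy, symbols age, and bars 95% counting intervals. Esrra lies below 0 in all 6 libraries on the left. On the right it lies between 0.01 and 0.46, with 3 intervals above 0 and 3 spanning 0, and Rxra lies below 0 in all 6.

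Within single libraries, CMs with stromal markers had less Esrra than the other CMs in 6 of 6 libraries, with intervals below 0 in 3 of them: -0.36 in P5-2n, -0.32 in E16.5-4n and -0.26 for the P1-4n library. Ppargc1a was lower in 6 of 6 too, with an interval below 0 in E16.5-4n, where CMs with stromal markers had 73.3 CPM and the others 105. Ppard was higher in CMs with stromal markers in 5 of 6 libraries, at 7.10 against 2.93 CPM in E16.5-4n (1.28, 0.44 to 2.11) and 5.20 against 3.01 CPM in P1-4n (0.79, 0.11 to 1.49). Rxra was higher in 5 of 6, with 10.5 against 5.97 CPM in E16.5-4n and 11.2 against 6.15 in P5-2n. Thra was higher in 5 of 6 too, with intervals above 0 in 2. These were E16.5-4n, at 84.3 against 71.1 CPM (0.25, 0.04 to 0.45), and P5-4n, at 77.5 against 67.5 CPM (0.20, 0.00 to 0.39). The marker-carrying CMs were the deeper ones, with a median of 2625 against 2085 UMIs in E16.5-4n and 4298 against 2819 in P1-4n, and the part of doublets or free RNA in these ratios was not tested. Ratios of all genes in this split were not computed, so those of members cannot be set apart from a shift of all genes.

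CMs with cycling markers had less Thra than the others in 6 of 6 libraries, and the interval lay below 0 in 4: -0.20 in E16.5-2n and, among tetraploid CMs, -0.38 at E16.5, -0.20 at P1 and -0.32 at P5. Esrra was lower in 5 of 6, with intervals below 0 in E16.5-2n (-0.17), P1-4n (-0.28) and both P5 libraries (-0.20 in 2n and -0.17 in 4n). For Ppargc1a the interval lay below 0 in E16.5-2n, at 80.3 against 99.0 CPM, and in P5-2n, at 57.8 against 69.5 CPM. Ppargc1b was lower in 6 of 6, with log2 ratios of -0.38 to -0.09 and every interval spanning 0. Ppara went both ways, with an interval below 0 in E16.5-4n (-1.23, from 19 and 28 UMIs) and above 0 in P1-4n (1.10, from 16 and 34 UMIs). Here too the marker-carrying CMs were the deeper ones, with a median of 2504 against 1910 UMIs in E16.5-4n and 5106 against 3013 in P1-4n. The part of depth or doublets in the ratios of cycling-marker CMs was not tested. Nor were ratios of all genes computed for this split, so a shift common to all genes cannot be told apart from these.

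CMs of each library were also split into 3 groups of equal size by the share of their UMIs that came from the 25 PPAR targets, a list that holds none of the 10 genes. These groups are ranges of a continuous value, with for example 1894 of the 7340 P1-2n CMs within 10% of the upper boundary. The share leans on the most counted targets. Fabp3 alone had 1316 of the 5295 CPM of the list in E16.5-2n, 5820 of 14925 in P1-2n and 6575 of 14187 in P5-2n. Ppargc1a did not separate them: its log2 ratio of highest to lowest group lay between -0.08 and 0.13, and all 6 intervals spanned 0. For Esrra this ratio lay between 0.01 and 0.46, with intervals above 0 in E16.5-4n (0.46, 0.24 to 0.68), P1-2n (0.25, 0.08 to 0.41) and P1-4n (0.29, 0.13 to 0.45). Its intervals spanned 0 in the other 3 libraries, with no difference to speak of in E16.5-2n (0.01, -0.17 to 0.20). Rxra was lower in 6 of 6, with 11.6 CPM in the lowest and 5.65 CPM in the highest diploid group of P1 and 10.4 and 5.17 CPM in the tetraploid groups, and Thra was lower in 4 of 6, with intervals below 0 in P1-2n, P1-4n and P5-2n, and higher in both E16.5 libraries. The lowest groups were shallower and richer in stromal-marker CMs, 5.07% against 1.59% among diploid and 44.2% against 24.3% among tetraploid CMs of P1. With the stromal-marker CMs left out, the ratios at P1 were -1.07 (2n) and -1.14 (4n) for Rxra and 0.26 and 0.28 for Esrra, while Rxra in P5-4n was then at 0.06 (-0.81 to 0.97). That of Thra in P1-4n was then -0.06 (-0.30 to 0.17), against -0.22 with them, and that in E16.5-4n was 0.35 (0.06 to 0.64), against 0.18 (-0.06 to 0.41). All genes were not compared between these groups, so the ratios of members cannot be set against a typical one.

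For the 7 members with at least 300 UMIs, the genes with the most similar course over the 6 libraries were sought among 9615 genes by the root mean square difference of mean-centred log2(CPM + 1). Closest to Ppargc1a were Parp4, Tmem38b and Hgs (0.021, 0.027 and 0.029), and closest to Esrra were Gm13212, Popdc2 and Tom1 (0.042, 0.048 and 0.050). Those for Ppargc1b were Kcmf1, Kcnj3 and Scap (0.032, 0.034 and 0.051), and for Thra Gstm4, Pank1 and Slc35e2 (0.043 each). Esrrg was nearest to Tyw1, Osbpl1a and Yrdc, Rxra to Trim68, Slx1b and AI413582, and Ppard to Stam, Dcaf7 and Rnf220. With 6 libraries such likeness is common, since 372 genes lay within 0.1 of Ppargc1a and 360 within 0.1 of Esrrg, but 50 of Ppargc1b and 31 of Rxra. For Ppard, Thra and Esrra these counts were 168, 136 and 101. The highest and lowest library did not differ for Ppard beyond counting error, so its nearest genes show no shared course.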

How the data were processed

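CMs of mouse left ventricle were profiled with 3' droplet scRNA-seq, 1 library for each of 3 ages and 2 ploidies. The authors processed the reads with Cell Ranger (version not given in the sources used here), aligned them with STAR to GRCm38 (mm10) and deposited unnormalised counts of UMIs for each gene in each called cell, taken by strand over exons and introns. Gene positions came from GENCODE vM21 and promoters from RefSeq. The submitters' processing notes also name Seurat 2.3.0. Groups came from the sample titles, and one label field of E16.5-4n gives a slightly later embryonic day than its title. No doublet caller was run, and a deposited table of the authors' own comparison of cell groups, with fold changes and p-values, and a list of background symbols were not used.

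UMIs were summed over CMs (1 UMI or more of each of 4 markers) and scaled to CPM. With 1 library per group no test was run, and a fit with age and ploidy as additive terms, which leaves 2 residual degrees of freedom, was not made. Ratios carry exact binomial intervals, changes of within-family ratios normal ones, at 95%, and the call rule was 1.5-fold at 50 or more UMIs. A count of 0 was taken as up to 3 UMIs. The functions were tested on simulated data. Python 3.11.15, numpy 2.4.6, scipy 1.17.1, pandas 2.3.3 and matplotlib 3.10.9 were used. Named genes were all members, the 3 genes most like each, the 3 most counted genes of each list and those in counts of 5 or fewer; further genes (Cd36, Ucp3, Plin2, Cpt1b, Dio1, Dio3, Pparg, Rxrg and Nr2f2) were named after their values were seen, and some listed genes are not reported here. The members and lists were chosen with earlier results of these data known. Alternatives changed the scaling, the CM filter, the depth, the minimum, the fold and the CMs with markers or shared barcodes, and 1 (stromal-marker CMs left out of the PPAR target groups) was chosen after seeing the data.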

Additional observations from a re-analysis of the deposited data

Results flagged for a closer look

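Esrra went opposite ways between P1 and P5 in the sorted fractions, with a log2 ratio of -0.13 in 2n and 0.14 in 4n, both counting intervals off 0. The difference between 2n and 4n was not tested, and each value rests on 1 library per age. Both fractions ended at near values, 113 CPM at P5 in diploid and 119 CPM in tetraploid CMs. Without the CMs carrying stromal markers the ratios were -0.09 and 0.06. With libraries scaled by the median ratio of genes they were -0.03 and 0.28.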

How the results depend on the processing

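Over 630 recomputed member ratios (9 alternatives, 7 comparisons, 10 genes), 588 stayed within the counting interval of the reported ratio, 42 lay outside and 0 called ratios turned direction. Genes with few UMIs have wide intervals, so staying within them says little for those genes. Ratios that were not called could turn, as did that of Ppargc1a from E16.5 to P1 in 4n, from -0.16 to 0.15 with the median of ratios. Counts of called members moved as follows. From E16.5 to P1 in 2n (2 called, both higher) the count was 3 with the mean over CMs (1 of them lower), 3 with no minimum of UMIs, 1 thinned to 2000 UMIs and 1 without shared barcodes, and 0 without CMs carrying cycling markers and 0 at 2-fold. In 4n (1 called, higher) it was 3 with the median of ratios, 2 with the mean over CMs (1 of them lower), 2 with no minimum, 0 thinned, 0 without CMs carrying stromal markers and 1, lower in place of higher, without those carrying cycling markers. From P1 to P5 in 2n (2 called) it was 0 thinned, and 1 without CMs carrying stromal markers, 1 without those carrying cycling markers, 1 without shared barcodes and 1 at 2-fold. In 4n (2 called, both lower) it was 1 with the median of ratios and 1 thinned, both higher, 1 without the 50 most abundant genes, 1 with the mean over CMs and 1 without stromal-marker CMs, all lower, 0 at 2-fold, and 2 without cycling-marker CMs, 1 of them higher. Between ploidies, E16.5 (0 called) gave 1 without cycling-marker CMs and 1 with no minimum, both higher, P1 (0 called) gave 1 with the mean over CMs and 1 without cycling-marker CMs, both lower, and 1, higher, without stromal-marker CMs, and P5 (1 called) gave 0 thinned and 0 at 2-fold. Ppargc1b in 2n lay at the threshold, 0.59 as reported and 0.55 without cycling-marker CMs. Some calls were lost because the gene fell under 50 UMIs while its ratio stayed past the fold. Without stromal-marker CMs this was Esrrb from E16.5 to P1 in 4n (9 and 34 UMIs, log2 ratio 1.76). It was also Thrb from P1 to P5 in 2n (15 and 30 UMIs, 0.98). Without cycling-marker CMs it was Esrrb from E16.5 to P1 in 2n (15 and 33 UMIs, 0.60) and 4n (7 and 39 UMIs, 0.80). Thrb from P1 to P5 in 2n then had 15 and 30 UMIs and a ratio of 1.07. The scaling by the median of ratios moved all genes by 0.32 and 0.31 from E16.5 to P1 in 2n and 4n, and the share of all genes lower there from 33.0% to 17.1% and from 31.0% to 16.0%, and that higher from 5.35% to 12.4% and from 7.63% to 15.6%; totals without the 50 most abundant genes gave 20.5% and 18.6% lower. Apart from genes short of the minimum, the causes of these moves were not tested. Leaving out a library would remove its group and was not run. Ppara, Ppard, Esrrb and Thrb rest on few UMIs, 31 to 79 per library for Ppara and Ppard and 2 to 61 for Esrrb and Thrb, so smaller differences were not detectable at this depth.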
